A study of Mus musculus with 24 samples.

Results

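The genes described here are 10 of the 55450 mouse genes in the GENCODE M21 annotation, chosen by name for their place in memory signalling. They are the kinase genes Camk2a, Camk2b and Prkcz, the phosphatase genes Ppp3ca and Ppp1cb, the CREB genes Creb1, Crebbp and Ep300, and Reln and Wwc1. All measured CpGs inside each gene or within 2000 bases of it were taken, which gave 764 of the 762162 CpGs of the table, where the cytosines of the plus and minus strand of a CpG are separate entries. Their methylation was measured by reduced representation bisulfite sequencing (RRBS), which cuts DNA at CpG-rich sites and reads methylated cytosines as those that bisulfite leaves unconverted.

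The tissue was the micro-dissected dentate gyrus of single female C57BL/6JRj mice, and 19 mice in 3 groups had values. Young STD were 5 mice of 1.5 months in standard cages. Aged STD were 7 mice of 14 months kept in standard cages, and Aged ENR were 7 mice of 14 months kept from youth in an enriched environment, a large shared enclosure with tunnels and toys. Another group, Young ENR, has 5 described samples and was not analysed here. All mice were of the same strain, and enrichment was the only labelled treatment.

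The dentate gyrus is the part of the hippocampus in which granule neurons receive input from the cortex and in which new neurons are born in adult life. Calcium that enters an active synapse binds calmodulin, which switches on the kinase CaMKII and the phosphatase calcineurin. At many synapses these enzymes act in opposite directions on synaptic strength. Kinase signals that reach the nucleus phosphorylate CREB, a factor that binds the cAMP response element (CRE) and recruits the acetyltransferases CBP and p300 to switch on genes needed for lasting memory. CpGs at active promoters are usually unmethylated, whereas CpGs inside genes usually carry methylation.

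The values are percent of reads methylated at a cytosine in 1 mouse, without read numbers, so the depth behind a value is unknown beyond the coverage minimum that the deposited values had passed. Values at partly methylated CpGs of these genes, those between 50 and 80% on average in the rest of the mice, were not equally fine in all libraries. In Aged STD 3 and 4 and Aged ENR 3 and 4, 65.0 to 72.7% of such values were 0 or 100%, over 20 to 33 CpGs each, against 11.1 to 52.2% in the remaining 15 libraries. A mouse had values for 489796 to 725449 CpGs of the table and for 406 to 737 of the 764 CpGs of these genes, and 68 of the 764 had a value in every mouse. Because mice were measured at different CpGs, the level of a region in a mouse was taken from a fit with a term for each CpG and for each mouse, and such a level can lie slightly below 0. The CpGs that were measured were not alike: the mean Young STD level of the CpGs with a value in a mouse, called its composition index here, was 30.6 to 32.3% in Young STD, 19.5 to 38.0% in Aged STD and 23.4 to 36.2% in Aged ENR. The 3 lowest indices belonged to Aged STD 4, 3 and 6, at 20.8, 19.6 and 19.5%, and the counts over bodies are given also without them, with the index in the model, or both. Promoters of 4 granule neuron marker genes had a mean level of 1.07% in Young STD, and those of 4 interneuron, 2 oligodendrocyte, 3 astrocyte and 2 microglia marker genes had means of 3.07, 5.61, 23.0 and 16.1%. Differences in the makeup of cells between the groups cannot be told apart from differences within cells.

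Promoter CpGs were those within 1000 bases of an annotated transcription start, and body CpGs were the rest of the gene and its flanks. The 10 genes held 478 promoter and 286 body CpGs. By annotation 374 lay in introns, 158 in UTRs, 62 in coding exons, 37 in exons of non-coding transcripts and 133 in flanks. All 10 promoters had at least 3 CpGs. The bodies of Ppp1cb and Ep300 had 0 and 2, so 8 bodies were tested. Of the 764 CpGs, 20 also lay in another gene: 8 near Ppp1cb in Gm43312, 6 near Ep300 in 1110025M09Rik and 6 in Reln in Gm10475.

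The sequences around the starts of Creb1 and Prkcz are shown because the low promoter levels and the CRE values given below rest on such stretches. All are from GRCm38.p6, the build that mm10 names. The first 2 come from RefSeq promoter windows and stop before an annotated start, the first of Creb1 and an internal one of Prkcz. Capitals mark the 5 measured CpGs of 6 in the Creb1 stretch. In the Prkcz stretch, which lies before the internal starts of the gene, capitals mark the full CRE, TGACGTCA. The third stretch was read from the genome, lies after the first start of Creb1 and holds its 2 measured CRE cores, TGACG, in capitals.
Creb1 promoter, chr1:64532554-64532644, + strand: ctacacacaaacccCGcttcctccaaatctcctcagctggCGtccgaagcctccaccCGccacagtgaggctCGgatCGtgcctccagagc
Prkcz internal promoter, chr4:155345773-155346039, - strand: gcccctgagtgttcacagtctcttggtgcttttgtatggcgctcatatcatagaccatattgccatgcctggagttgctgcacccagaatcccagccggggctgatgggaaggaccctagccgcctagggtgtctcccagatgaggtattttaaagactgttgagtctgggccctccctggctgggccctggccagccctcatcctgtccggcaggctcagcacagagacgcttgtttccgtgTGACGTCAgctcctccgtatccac
Creb1 CRE cores, chr1:64532910-64532935, + strand: TGACGcggcggaggtgtagttTGACG

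Methylation of the CpG inside a CRE is known to block the binding of CREB. The full CRE, TGACGTCA, was found in 588 of 32851 RefSeq promoter windows of the mouse (1.79%), and the core, TGACG or its complement CGTCA, in 6837 (20.8%), with full elements counted among the cores. Such windows, 300 bases long, were found for 8 of the 10 genes, and of their 10 windows 3 held a core, 1 in Ppp1cb and 2 in Prkcz, and 1 of those in Prkcz the full CRE. The counts that follow are over wider stretches, on the genome, and cannot be set against these shares. Within 1000 bases of the starts of the 10 genes there were 58 cores, from 11 in Reln and 10 in Prkcz to 0 in Wwc1, and 1 full CRE, in Prkcz. Values were present for 10 cytosines inside these cores. Their mean levels ranged from 0 to 14.4% in Young STD, 0 to 20.98% in Aged STD and 0 to 7.62% in Aged ENR, with medians of 0, 1.64 and 0.130%. The cytosine of the Prkcz CRE at chr4:155345793 was at 0% in all 12 mice measured. The 4 cytosines in the Creb1 cores shown above had group means of 0 to 3.16%. The highest means in Young STD and in Aged STD were at the Camk2a core at chr18:60925592, 26 bases before a start, with 14.4, 20.98 and 6.09% in Young STD, Aged STD and Aged ENR and 5 of 15 mice over 10%. The Aged STD mean there rested on Aged STD 4, at 90.0%, and was 3.72% over the other 4 mice, below the Young STD mean. The highest Aged ENR mean was at another Camk2a core, at chr18:60925647. A match of letters is a description and does not show that a factor binds there.

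Promoters were nearly unmethylated and bodies were not. In Young STD, 463 of 478 promoter CpGs had a mean below 20% and 8 were above 80%. Of the 286 body CpGs, 85 were below 20%, 130 lay between 20 and 80% and 71 were above 80%. The mean level was 1.12% over the 252 CpGs within 250 bases of a start, 1.68% over the next 123 out to 500 bases and 9.30% over the 103 out to 1000 bases. It was 46.8% over the 58 CpGs out to 5000 bases, 43.1% over the 115 out to 20000 bases and 50.5% over the 113 farther away.

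**Figure D1:**
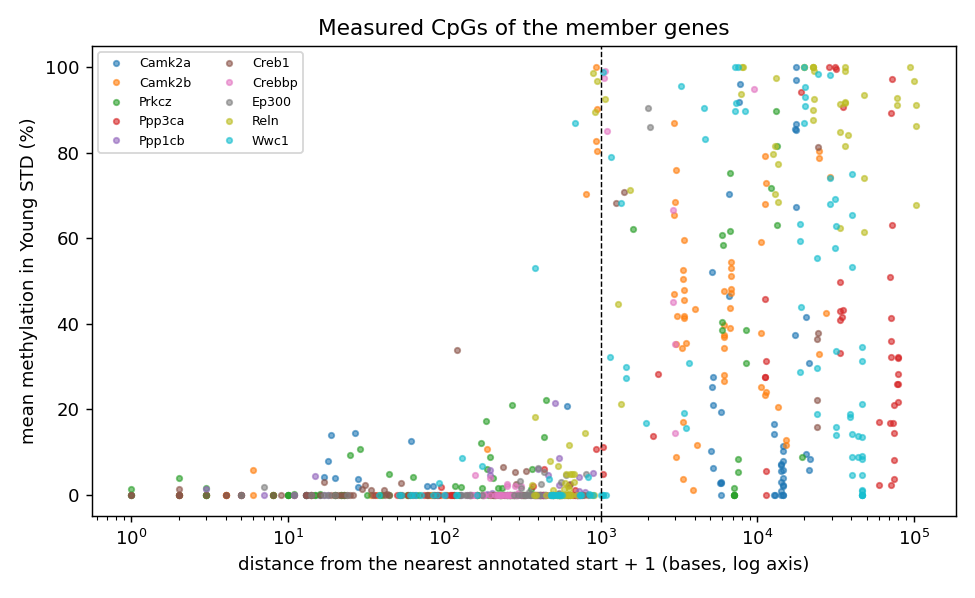
Mean methylation in Young STD (%, vertical axis) of each measured CpG of the 10 genes against its distance from the nearest annotated start (bases plus 1, log axis), with 1 colour per gene. The dashed line stands at 1000 bases, the limit of a promoter; levels near 0 fill the left of the plot, and 8 CpGs left of the line lie above 80%.

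The 15 promoter CpGs over 20% in Young STD lay mostly at late starts of transcripts inside a gene. Within 1000 bases of the first start of a gene, 5 of 364 CpGs were over 20% (mean 1.21%), and near a later start only, 10 of 114 were (mean 8.83%). Camk2b had 5 CpGs at 70.4 to 100% near the start of a processed transcript 82224 bases into the gene. Reln had 3 at 89.6 to 98.6% near the start of a retained-intron transcript 411983 bases in, and Wwc1 had 2 at 53.1 and 87.0% near that of a processed transcript 104815 bases in. Prkcz also has starts 60190 to 93026 bases in, near which no CpG was measured. Its internal starts at 15589 to 16621 bases were low as well. There 49 CpGs had a mean of 1.76% in Young STD, 2.29% in Aged STD and 1.12% in Aged ENR. The means were 1.30, 1.22 and 1.57% over 55 CpGs at the first starts. The internal promoter of Prkcz is the one from which neurons make PKMzeta, the form of the kinase without its regulatory domain.

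The body was higher than the promoter in each of the 8 genes with both. Over all mice the adjusted p of the difference (limma, Benjamini-Hochberg over 11274 genes) was under 0.05 in 8 of 8, and the background was high, since 78.7% of all genes tested had a body called higher. The smallest differences were in the CaMKII genes. Camk2a, the alpha subunit, differed by 20.2 ± 1.52 points (SE, adjusted p = 1.82e-10), and Camk2b, the beta subunit, by 23.5 ± 2.57 points. Reln, the gene of a secreted glycoprotein made by interneurons and Cajal-Retzius cells, had the largest, at 78.0 ± 1.44 points (adjusted p = 6.52e-20). Between these were Ppp3ca at 30.7 points, Prkcz at 32.4, Creb1 at 33.8, Wwc1 at 35.6 and Crebbp at 52.5. The body lay above the promoter in all 19 mice in 7 genes and in 18 of 19 for Creb1, where the exception was an Aged STD mouse. The median over the 8 genes, 33.1 points, was near the median of all genes, 34.3 points. With CpGs that had a value in every mouse, Wwc1 was the only gene of the list left with both regions, and its body was called higher there as well, where 852 of 1235 genes were called.

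**Figure D2:**
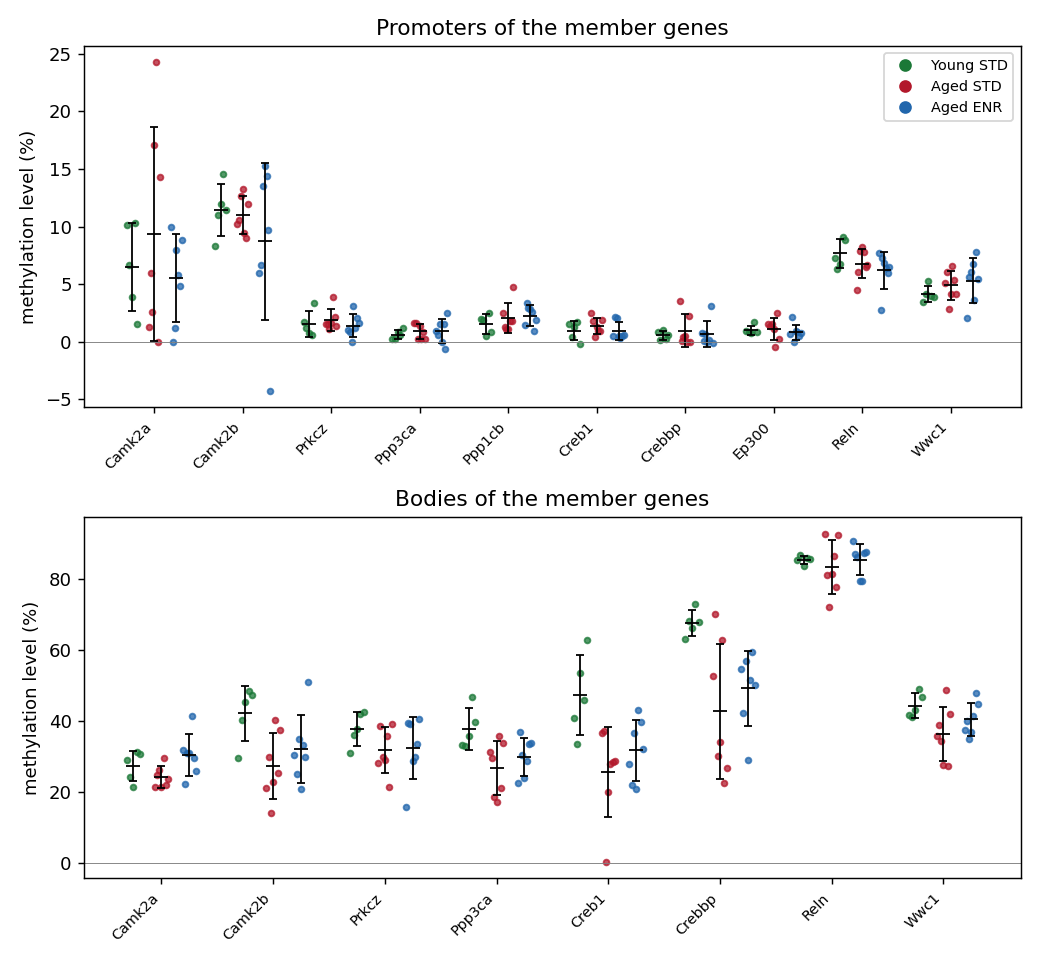
Methylation level (%) of each promoter (upper panel) and each body (lower panel) of the genes in every mouse, by group; bars show the mean and SD, and the panels differ in scale. Promoters of Prkcz, Ppp3ca, Ppp1cb, Creb1, Crebbp and Ep300 stay below 5% in every mouse, whereas bodies spread from 0.241 to 92.9%.

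The order of promoters by their Young STD mean ran from Camk2b, at 11.5% ± 2.25 (SD, n = 5), over Reln at 7.66% ± 1.25, Camk2a at 6.52% ± 3.82 and Wwc1 at 4.15% ± 0.67 to the other 6 genes at 0.571 to 1.55%. Among the first 4 genes neighbours in this order overlapped from mouse to mouse, and Camk2a overlapped with all 3 of the others, while neither Camk2b nor Reln overlapped with Wwc1. The promoter CpGs of Camk2b include the 5 high ones at its late start. No promoter of the list passed the test between groups. The differences ran from -0.873 to 2.82 points between Aged STD and Young STD, from -3.82 to 0.409 points between Aged ENR and Aged STD and from -2.74 to 1.17 points between Aged ENR and Young STD. With 1 mouse left out, the 2.82 and -3.82 points of Camk2a ran from 0.336 to 4.38 and from -5.38 to -1.33. The -2.74 points of Camk2b ran from -3.83 to -0.575, and with plain means of CpGs they became 7.01. In all 3 comparisons 0 of 10 had an unadjusted limma p under 0.05, and the adjusted p was 0.779 to 0.951, 0.957 to 0.996 and 0.818 to 0.998. Among all promoters the share with such a p was 5.96%, 4.14% and 5.11%, and none passed after adjustment.

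The comparison of Aged STD with Young STD asks which methylation moved with age in standard cages. In the bodies of these genes the Aged STD mean was below the Young STD mean in 8 of 8, by 2.06 points in Reln to 24.9 points in Crebbp, with a median of -9.47 points. None passed the test (limma, Benjamini-Hochberg over all gene regions), with adjusted p of 0.480 to 0.876, and 0 of 36725 regions passed. The unadjusted limma p was under 0.05 in 4 of 8, Creb1, Crebbp, Camk2b and Ppp3ca. The background leaned the same way: 70.4% of all 17574 bodies were lower in Aged STD, 10.2% had an unadjusted p under 0.05, and the median was -2.57 points. Groups did not overlap in 0 of the 8 bodies and in 1.25% of all. With the group means of CpGs averaged instead of the fitted levels, Reln was not lower in Aged STD (85.6% in Young STD, 85.8% in Aged STD).

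Creb1 is the gene of CREB itself, and its body CpGs were 5 in a UTR near the end of the gene and 2 in the flank before it (gene at chromosome 1, 64532645 to 64604548, plus strand). The Young STD levels were 40.8, 33.6, 53.6, 46.0 and 62.8%. Aged STD ran from 0.241 over a median of 28.5 to 37.3%, and Aged ENR from 20.7 over 32.2 to 43.1%. In Aged STD 5 of 7 mice lay below every Young STD mouse, and the groups overlapped. Aged STD minus Young STD was -21.8 ± 6.81 points (adjusted p = 0.480), and it was -19.2 and -26.0 points within the 2 series of library numbers, 27 and 37.

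Crebbp, the gene of the acetyltransferase CBP, had 8 body CpGs, 6 in coding exons (chromosome 16, 4081328 to 4213997, minus strand). Young STD levels were 63.1, 68.2, 66.4, 73.1 and 68.0%, a narrow range. Aged STD ran from 22.5 over a median of 34.0 to 70.3%, and 6 of 7 mice lay below every Young STD mouse. The difference was -24.9 ± 8.24 points (adjusted p = 0.497), with -19.0 and -33.1 points within the library series.

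Of the kinase genes, Camk2b (chromosome 11, 5969644 to 6066362, minus strand) had the largest difference. Its 52 body CpGs stood at 29.6, 40.2, 45.4, 48.6 and 47.4% in Young STD and at 14.0 to 40.3% in Aged STD, with a median of 25.4%. In Aged STD 4 of 7 mice were below all Young STD mice, and the difference was -14.9 ± 5.16 points (adjusted p = 0.522). Camk2a (chromosome 18, 60925618 to 60988152, plus strand) overlapped throughout: Young STD was at 29.1, 24.3, 21.3, 31.3 and 30.6% and Aged STD at 21.4 to 29.7%, a difference of -3.12 ± 2.74 points. Prkcz, the gene of an atypical protein kinase C (chromosome 4, 155260129 to 155361361, minus strand), stood at 30.9 to 42.7% in Young STD and 21.5 to 39.3% in Aged STD, a difference of -6.04 ± 3.89 points. For these 2 genes the adjusted p was 0.764 and 0.701.

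Ppp3ca, the catalytic subunit of calcineurin (chromosome 3, 136670124 to 136937727, plus strand), had 43 body CpGs, all in introns. Young STD was at 33.3, 32.9, 35.9, 46.9 and 39.8%, and Aged STD ran from 17.2 over a median of 29.7 to 35.9%. Here 5 of 7 Aged STD mice were below all Young STD mice, with a difference of -10.9 ± 4.32 points (adjusted p = 0.577). Ppp1cb, a catalytic subunit of protein phosphatase 1 (chromosome 5, 32458843 to 32517433, plus strand), had promoter CpGs only, at means of 1.55, 2.06 and 2.28% in Young STD, Aged STD and Aged ENR. Ep300, the gene of p300 (chromosome 15, 81585351 to 81652077, plus strand), had 2 body CpGs, too few for a test, with means of 88.3, 92.1 and 94.1% in the 3 groups.

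The Reln body (chromosome 5, 21884454 to 22344702, minus strand) was the highest of the 8 and, in Young STD, the narrowest, at 83.7 to 86.8%. Aged STD spread from 72.1 to 92.9%, with 4 mice below and 2 above all Young STD mice, and the difference was -2.06 ± 3.66 points (adjusted p = 0.876). Wwc1 is the gene of KIBRA, a scaffold protein that binds atypical protein kinase C (chromosome 11, 35838400 to 35980527, minus strand). Its 66 body CpGs stood at 41.6, 41.3, 43.2, 49.1 and 46.8% in Young STD and 27.2 to 48.7% in Aged STD, where 5 of 7 mice were below all Young STD mice. The difference was -8.04 ± 4.16 points (adjusted p = 0.650).

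Body levels were lowest in the 3 mice with the lowest composition index. The mean over the 8 bodies was 48.8% ± 4.07 (SD, n = 5) in Young STD, 37.3% ± 6.97 (n = 7) in Aged STD and 41.5% ± 4.30 (n = 7) in Aged ENR. Aged STD 3, 4 and 6, the mice with the lowest composition index, had the 3 lowest means, 28.3, 31.7 and 30.8%, while the other 4 Aged STD mice stood at 40.01 to 46.0%. Without these 3 mice 7 of 8 bodies were lower in Aged STD, the median was -4.09 points, and 1 had an unadjusted limma p under 0.05: Creb1, at -14.8 points. In the same fit 58.5% of all bodies were lower, 5.90% had such a p and the median was -0.773 points. With the index in the model 7 of 8 were lower, with a median of -4.40 points and again 1 of 8, Creb1, at -16.7 points. Of all bodies 59.1% were then lower, 5.70% had such a p and the median was -0.817 points. In that fit the other 3 genes named above stood at -15.3 points for Crebbp, -9.97 for Camk2b and -5.73 for Ppp3ca. The part of the index in the differences was not tested further.

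**Figure D3:**
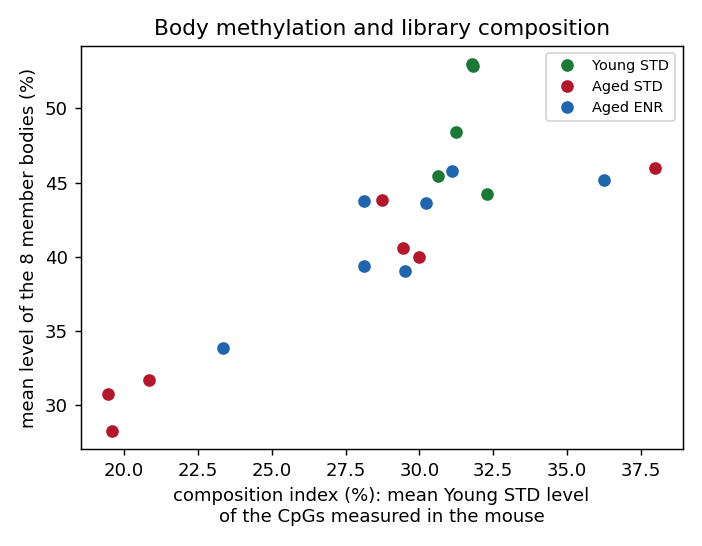
Mean level of the 8 bodies (%) of each mouse against its composition index (%), the mean Young STD level of the CpGs measured in that mouse, by group. The 5 Young STD mice sit between 30.6 and 32.3% on the index and at 44.3% or more in body level, and 3 Aged STD mice sit apart at the lower left, at indices of 19.5 to 20.8%.

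The comparison of Aged ENR with Aged STD asks what enrichment moved in aged mice. The Aged STD mice are the same as above, so the 2 comparisons are not independent. The Aged ENR mean was above the Aged STD mean in 8 of 8 bodies, by 0.744 points in Prkcz to 6.40 points in Crebbp, with a median of 4.52 points, against 0.861 points over all bodies. None had an unadjusted limma p under 0.05 (background 4.23%), and the adjusted p was 0.957 or more. Over all bodies 39% were lower in Aged ENR. Groups overlapped in all 8 bodies, where 0.193% of all bodies had groups apart. With promoters of 2000 bases on each side of a start 2 of the 8 turned, Creb1 to -7.27 and Prkcz to -0.0770 points. The count of 8 also rests on the fitted levels. With the group means of CpGs averaged instead, Prkcz (31.04% in Aged STD, 30.97% in Aged ENR) and Reln (85.8 and 85.5%) were slightly lower in Aged ENR. Crebbp then stood at 49.8 and 50.5%. The Creb1 CpGs did not share a direction: the 2 in the flank had means of 35.2% in Aged STD and 80.6% in Aged ENR, and the 5 in the UTR of 20.4 and 11.8%. Without Aged STD 3, 4 and 6 the direction turned: 6 of 8 bodies were lower in Aged ENR, with a median of -1.81 points, as were 55.8% of all bodies, with a median of -0.462 points. Leaving out Aged STD 3 alone gave a median of 2.31 points, leaving out Aged STD 6 alone 2.80 points and leaving out Aged ENR 7 alone 2.93 points. With the index in the model the median was 0.834 points, against 0.103 points over all bodies. Within the library series the sign differed for Crebbp (-1.06 and 16.4 points), Prkcz (-0.580 and 2.51 points) and Reln (4.07 and -0.754 points).

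Camk2a was nearest to the threshold. Aged STD ran from 21.4 over a median of 23.8 to 29.7%, and Aged ENR from 22.2 over 31.0 to 41.6%. In Aged ENR 4 of 7 mice lay above all Aged STD mice, and the difference was 6.24 ± 2.96 points (adjusted p = 0.957). It was 5.53 and 7.18 points within the library series and 5.54 points without Aged STD 3, 4 and 6. The step from promoter to body of Camk2a had a mean of 14.9 points in the Aged STD mice (SD 8.15) and of 24.9 points in the Aged ENR mice (SD 6.11). The second mean was higher by 10.1 ± 3.72 points (adjusted p = 0.960). Part of this lay in the promoter, with a fitted mean of 9.34% in Aged STD (mice at 0 to 24.3%) and 5.52% in Aged ENR. The group means of the promoter CpGs averaged 5.35 and 5.30%, nearly the same. Of the 59 CpGs of Camk2a, 0 had a value in every mouse. Of the 8 genes only Camk2a had an unadjusted limma p under 0.05 for this step between the aged groups (background 4.31%).

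Aged ENR was also set against Young STD, which shares mice with both comparisons above. In 7 of 8 bodies Aged ENR was lower (63.8% of all bodies were), with a median of -6.55 points and Camk2a as the exception at 3.12 points. In the fit with the index 6 of 8 were lower (58.1% of all bodies), with a median of -5.64 points and again 2 of 8 with an unadjusted limma p under 0.05, Crebbp and Creb1 (6.09% of all bodies). Crebbp and Creb1 had an unadjusted limma p under 0.05 (2 of 8, background 7.96%). Crebbp stood at 28.9 to 59.6% in Aged ENR, with a median of 51.7%, so that all 7 Aged ENR mice lay below the 5 Young STD mice. The difference was -18.5 ± 4.94 points (adjusted p = 0.576), -20.1 and -16.7 points within the library series, and -14.3 points with the index in the model. Groups did not overlap in 1.02% of all bodies. For Creb1 the difference was -15.6 ± 5.61 points (adjusted p = 0.682), and 4 of 7 Aged ENR mice were below all Young STD mice.

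**Figure D4:**
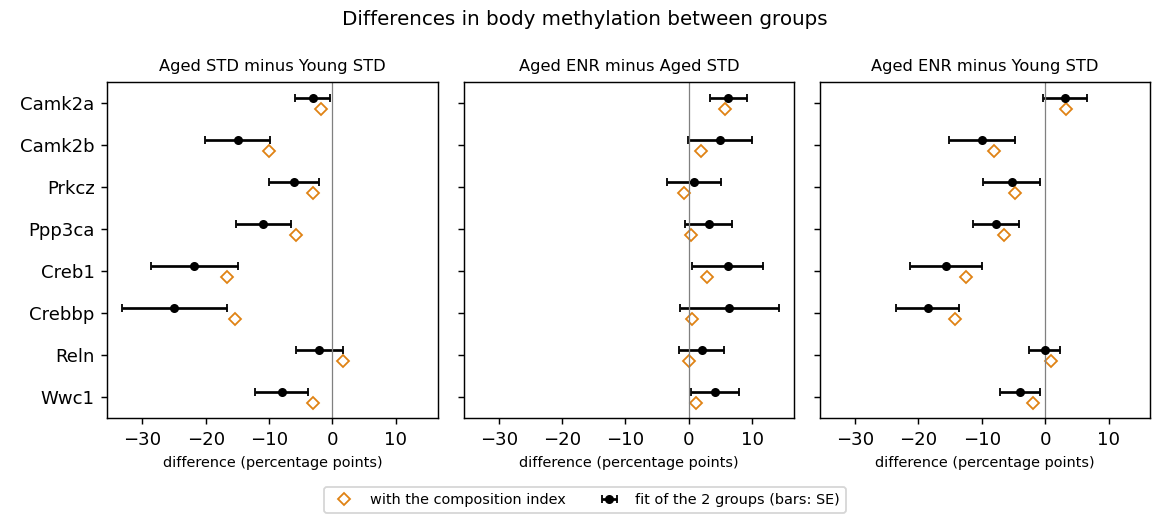
Differences in body methylation (percentage points) in the 3 comparisons for the 8 genes with a tested body; black points give the difference with its SE, and open diamonds the same with the composition index in the model. Creb1 and Crebbp lie farthest left against Young STD, and the diamonds of 7 of 8 genes in the first panel lie left of 0.

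At single CpGs, 0 of the 764 passed the test in any comparison (limma, adjusted p under 0.05 and over 25 points), and 0 of all CpGs did. A CpG at which no mouse compared differed from another was not tested, and the shares over all CpGs leave such CpGs out as well. Between Aged STD and Young STD 494 CpGs of the list were tested, and the other 270 were at 0% (266) or at 100% (4) in every mouse with a value. Of these 50 were lower and 8 higher in Aged STD by over 25 points, where 7.19% of all CpGs were lower and 2.17% higher by as much. An unadjusted limma p under 0.05 was found for 21 lower and 5 higher, against 3.33% and 1.09% of all CpGs. Of the 58, 55 were body CpGs, but 463 of the 478 promoter CpGs were below 20% in Young STD and could not fall by so much. The shares over all CpGs, here and below, include promoter CpGs, and none was taken over body CpGs alone. Camk2b held 20 of its 52 tested body CpGs lower by over 25 points and 0 higher. In Wwc1 8 of 62 were lower and 2 higher, in Ppp3ca 7 of 41 lower and 1 higher, in Camk2a 3 of 40 in each direction, and in Reln 1 of 38 lower and 2 higher.

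Between Aged ENR and Aged STD 499 CpGs were tested, 12 lower and 29 higher in Aged ENR by over 25 points, where 2.62% of all CpGs were lower and 4.53% higher by as much. An unadjusted limma p under 0.05 was found for 4 lower and 12 higher, against 0.798% and 1.45% of all CpGs. Camk2a with 7 and Wwc1 with 8 body CpGs had the most that were higher. Between Aged ENR and Young STD 461 were tested, 37 lower and 17 higher by over 25 points (background 5.21% and 2.39%), and 14 of the lower ones were in Camk2b. An unadjusted limma p under 0.05 was found for 16 lower and 5 higher (background 2.56% and 1.4%). Of the tested CpGs with a value in every mouse compared, 0 of 72, 0 of 67 and 1 of 93 had groups that did not overlap, where the background was 0.432%, 0.0162% and 0.323%.

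That CpG was at chr1:64600914 in a UTR of Creb1. It stood at 39.0, 25.4, 35.1, 19.6 and 70.3% in Young STD and at 0 to 17.9% in Aged ENR, with a difference of -31.3 ± 9.12 points (adjusted p = 0.776). Among the Aged STD mice 6 were at 0 to 8.05% and Aged STD 2 was at 100%. A CpG close by, chr1:64600616, had the smallest p between Aged STD and Young STD, with 13.9, 16.7, 54.8 and 60.9% in the 4 Young STD mice measured, 0% in 6 of 7 Aged STD mice and 11.4% in the other (-34.9 points, adjusted p = 0.760). Its Aged ENR mean was 4.17% over 5 mice.

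The other CpGs with the smallest p in this comparison were in Camk2b, Wwc1 and Camk2a, each at the same adjusted p of 0.760. At chr11:6006619, in an intron of Camk2b, 4 Young STD mice stood at 36.0 to 71.4% and 7 Aged STD mice at 0 to 31.8% (-39.9 points). At chr11:35934008, in an intron of Wwc1, all 7 Aged STD mice were at 0%, and Young STD stood at 57.1, 51.9, 10.5, 0 and 53.3% (-34.6 points). The Camk2a CpG at chr18:60981130 had the opposite sign, with means of 37.5% in Young STD, 80.3% in Aged STD and 65.1% in Aged ENR (42.9 points).

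Between the aged groups the 4 CpGs with the smallest p all had an adjusted p of 0.769 and overlapping groups, and the signs differed. At chr11:35876090, in a coding exon of Wwc1, the means were 28.2% over 4 Aged STD mice and 84.2% over 6 Aged ENR mice (56.0 points). The Camk2b CpG at chr11:6025331 differed by nearly as much in the other direction, with 53.7, 0, 100 and 68.8% in 4 Aged STD mice and 0% in 4 Aged ENR mice (-55.6 points). Another intron CpG of Camk2b, chr11:6061436, was at 0% in 5 of 6 Aged STD mice and 42.9% in the other, and at 0 to 66.7% in 7 Aged ENR mice (34.0 points). At chr18:60978142, in an intron of Camk2a, all 6 Aged STD mice measured were at 0%, and the 5 Aged ENR mice were at 0% in 2 and at 52.0 to 74.4% in 3 (35.9 points).

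In Ppp3ca a pair of intron CpGs, chr3:136704608 and chr3:136704638, was low in Aged ENR. The first stood at 31.4 to 60.7% in Young STD and 0 to 29.6% in 6 Aged ENR mice (-36.2 points), and the second at 17.1 to 63.0% and 0 to 16.7% (-30 points). The adjusted p of both was 0.776. Groups did not overlap at either CpG among the mice with a value, and 1 Aged ENR mouse had none. The Aged STD means, 16.9 and 10.97%, lay between those of the other groups. Against Young STD, the smallest p of Aged ENR was at the Camk2b CpG chr11:6025331, in an intron. Young STD stood there at 21.1 to 45.5% in 4 mice and the 4 Aged ENR mice measured all at 0% (-33.0 points, adjusted p = 0.776), with no overlap among the mice with a value. A coding exon CpG of Reln, chr5:21976314, was higher in Aged ENR, with 39.0 to 86.5% in 4 Young STD mice and 84.1 to 100% in 7 Aged ENR mice (33.8 points, the same adjusted p), and the groups overlapped.

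Runs of at least 3 CpGs with gaps of up to 100 bases were taken as clusters, 73 in these genes. An unadjusted limma p under 0.05 was found for 8 of 73 between Aged STD and Young STD, all lower in Aged STD (background of such a p and lower 4.32%), for 5 between Aged ENR and Aged STD and for 5 between Aged ENR and Young STD. Over all clusters 5.97%, 3.77% and 5.42% had one. A single cluster of 75011 (0.00133%) passed the adjusted threshold, between Aged STD and Young STD, and it was in none of these genes. Groups did not overlap in 2 of 73 clusters between Aged STD and Young STD (background 1.61%), both in introns. They were the Camk2b cluster at chr11:6007177-6007241 (-32.3 points) and the Ppp3ca cluster at chr3:136682054-136682205 (-18.6 points). Sequences of 4 of the clusters described next, in introns or at least partly in coding exons, are shown to give the CpG spacing behind a value. They are from GRCm38, on the strand of the gene, with 10 bases on each side and the measured CpGs in capitals.
Camk2b coding exon, chr11:5972792-5972896, - strand: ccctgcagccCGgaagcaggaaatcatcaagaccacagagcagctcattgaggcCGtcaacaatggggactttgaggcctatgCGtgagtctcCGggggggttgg
Wwc1 intron, chr11:35948715-35948938, - strand: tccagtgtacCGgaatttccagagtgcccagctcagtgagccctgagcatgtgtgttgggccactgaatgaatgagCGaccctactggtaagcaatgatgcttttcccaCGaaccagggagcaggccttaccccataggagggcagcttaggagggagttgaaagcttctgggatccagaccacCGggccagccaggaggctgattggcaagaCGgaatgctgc
Reln coding exon, chr5:21976262-21976324, - strand: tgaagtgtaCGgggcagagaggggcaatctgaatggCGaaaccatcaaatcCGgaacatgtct
Camk2b intron, chr11:6025321-6025409, - strand: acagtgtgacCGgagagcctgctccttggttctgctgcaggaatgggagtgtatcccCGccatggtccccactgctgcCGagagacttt

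The Camk2b cluster labelled as coding exon, chr11:5972802-5972886 with 5 measured cytosines, stood at 38.9, 62.3, 59.9, 50.7 and 63.9% in Young STD. It was not coding throughout, since only 4 body cytosines of Camk2b lay in coding exons. The 7 Aged STD mice ran from -0.419 over a median of 16.2 to 46.5%, and 6 of them lay below every Young STD mouse. The difference was -36.8 ± 10.1 points (adjusted p = 0.591), -39.8 and -33.0 points within the library series and -32.4 points with the index in the model. In Aged ENR 5 mice were measured, at 5.45 to 76.9%, overlapping with both other groups.

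The Creb1 cluster at chr1:64600616-64600718, in a UTR, had the smallest p between Aged ENR and Young STD. Young STD was at 55.3, 23.5, 43.0, 36.9 and 45.7%, Aged STD at 10.5 to 34.8% and Aged ENR at 0 to 20.6% in 6 mice. Aged ENR and Young STD did not overlap (-27.5 ± 7.21 points, adjusted p = 0.762), where 1.31% of all clusters had groups apart. The difference between Aged STD and Young STD was -21.2 ± 7.58 points, so both aged groups stood below the young one here, with means of 19.7% in Aged STD and 13.4% in Aged ENR against 40.9%.

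The Wwc1 intron cluster, chr11:35948725-35948928, was at 29.9 to 50% in Young STD and -2.47 to 45.2% in Aged STD (-26.2 ± 9.42 points, adjusted p = 0.758), with -0.854 to 47.8% in Aged ENR. With the index in the model it was -17.5 points. A Reln cluster at chr5:21931778-21931821, next to the late start named above, had values in only 3 Aged STD mice, at 68.6, 90.3 and 55.6%, against 88.7 to 100% in Young STD (-23.5 points). In Aged ENR it stood at 47.3% in 1 mouse and 90.5 to 100% in the other 5.

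Reln had a cluster with the opposite sign. At chr5:21976272-21976314, in a coding exon, 4 Young STD mice stood at 94.2, 91.7, 63.6 and 68.7%, 5 Aged STD mice at 86.0 to 100% and 7 Aged ENR mice at 94.7 to 100%. Aged ENR lay above every Young STD mouse (19.2 ± 5.34 points, adjusted p = 0.764) and 6.97 ± 2.99 points above Aged STD. The Camk2b intron cluster, chr11:6025331-6025399, had 4 mice in each group, at 49.4 to 81.8% in Young STD, 12.3 to 100% in Aged STD and 18.8 to 49.3% in Aged ENR, the last below all Young STD mice (-33.3 points, adjusted p = 0.878). At the first starts of Reln a cluster of 26 CpGs stayed low, with means of 2.02, 3.13 and 0.335%.

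Of the clusters of Camk2a, the one at chr18:60978142-60978283 had the smallest p between the aged groups. The 7 Aged STD mice were at -0.888 to 2.16% and the 7 Aged ENR mice at 0 to 15.5% (5.20 ± 2.00 points, adjusted p = 0.930), while Young STD stood at 6.36, 1.89, 0, 0.350 and 14.9%. A neighbour at chr18:60977799-60977867 was at 0 to 0.463% in 4 Aged STD mice and 0 to 55.2% in 5 Aged ENR mice (22.4 points). No cluster of the list had Aged ENR and Aged STD apart, where 0.666% of all clusters did.

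**Figure D5:**
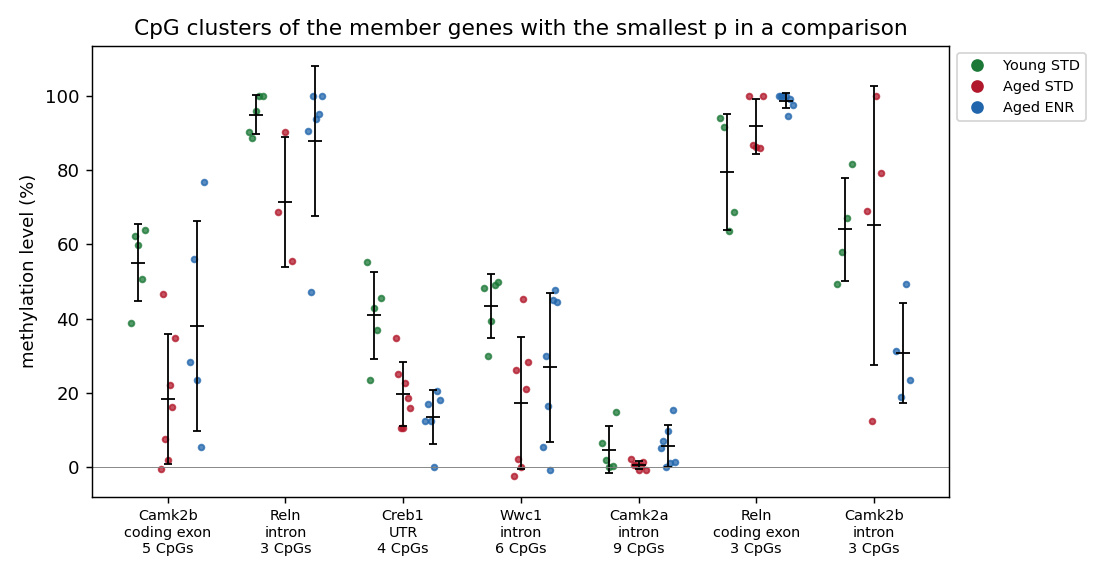
Methylation level (%) of 7 clusters of measured CpGs in every mouse with a value, by group, with the mean and SD as bars. The Young STD mice of the Camk2b coding exon and the Creb1 UTR lie above most aged mice, while in the Reln coding exon the 7 Aged ENR mice sit at 94.7 to 100%.

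The difference between body and promoter of a gene within a mouse was compared between the groups as well. Aged STD was lower than Young STD in 8 of 8 genes, with an unadjusted limma p under 0.05 in 5, namely Creb1 (-22.2 points), Crebbp (-25.3), Camk2b (-14.5), Ppp3ca (-11.2) and Wwc1 (-8.79), where the background was 11.3%. The smallest adjusted p was 0.323, and 68.3% of all genes were lower. Without Aged STD 3, 4 and 6, and also with the index in the model, 7 of 8 genes were lower and only Creb1 kept an unadjusted p under 0.05, where 6.47% and 6.39% of all genes had one. Groups overlapped in all 8 genes, where 1.37% of all genes had groups apart. Against Young STD, Aged ENR was lower by 18.6 points in Crebbp, with no overlap of the groups (adjusted p = 0.411, background of groups apart 1.12%). Aged ENR was lower in 6 of 8 genes (background 63%), and Crebbp, Creb1 and Ppp3ca had an unadjusted limma p under 0.05 (background 8.38%). Between the aged groups Aged ENR was higher in 8 of 8, where 40.6% of all genes were lower, and groups overlapped in all 8 (background of groups apart 0.275%). Without Aged STD 3, 4 and 6 this direction turned, with Aged ENR lower in 6 of 8 genes and a median of -1.48 points, where 54.8% of all genes were lower. With the index in the model Aged ENR was lower in 1 of 8, with a median of 0.973 points, and 48.6% of all genes were lower.

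The 58 other genes of the same pathways, chosen by name, had 57 tested promoters and 42 tested bodies, and 0 passed the test in any comparison. Between Aged STD and Young STD 35 of 42 bodies were lower, with a median of -5.95 points, and 8 had an unadjusted limma p under 0.05, all lower, where 70.4% of all bodies were lower and 10.2% had such a p. Without Aged STD 3, 4 and 6, 30 of 42 were lower, with a median of -1.21 points and such a p in 5 (Crtc1, Dlg4, Lrp8, Map2k1 and Rcan1). Of all bodies 58.5% were then lower, 5.90% had such a p and the median was -0.773 points. With the index in the model 27 of 42 were lower, with a median of -1.48 points and such a p in the 5 genes just named and Camk1. In that fit 59.1% of all bodies were lower, 5.70% had such a p and the median was -0.817 points. Over all mice the 8 were, among kinase genes, Map2k1, a kinase that activates ERK, at -30.5 ± 9.61 points, Prkcb at -13.0 ± 4.42, Prkce at -8.49 ± 3.80 and Camk1 at -7.99 ± 2.85. Rcan1, a regulator of calcineurin, stood at -16.7 ± 4.32 points, and Crtc1, a coactivator of CREB, at -19.7 ± 5.88. Lrp8, a receptor for reelin, stood at -20.6 ± 6.60 points and Dlg4, the scaffold PSD-95, at -8.15 ± 1.86 (adjusted p = 0.379).

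Between Aged ENR and Aged STD 16 of the 42 pathway bodies were lower (39% of all bodies), with a median of 1.19 points and 2 with an unadjusted limma p under 0.05 (background 4.23%): Prkci, another atypical protein kinase C, at 9.99 ± 4.30 points and Ppp1r1b, the gene of DARPP-32, at -2.28 ± 1.04. Without Aged STD 3, 4 and 6 the median turned to -0.767 points, with 29 of 42 lower, and neither gene kept such a p. Of all bodies 55.8% were then lower, with a median of -0.462 points. Between Aged ENR and Young STD 33 of 42 were lower (63.8% of all bodies) and 8 had an unadjusted p under 0.05, all lower (background 7.96%). A fit with the index gave 31 of 42 lower (58.1% of all bodies), and 6 had such a p, 5 of them lower (background 6.09%). Crtc1 had the smallest, with 49.7% in Young STD and 29.8% in Aged ENR (-19.9 ± 3.66 points, adjusted p = 0.379). The Aged STD mean of Crtc1 was 29.98%.

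Markers of cell types gave these levels in the same mice. Bodies of 4 granule neuron genes were at 23.3, 19.3 and 21.7% in Young STD, Aged STD and Aged ENR, those of 4 interneuron genes at 41.4, 38.4 and 40.1%, and those of 4 oligodendrocyte genes at 50.3, 42.5 and 47.2%. Bodies of 4 astrocyte genes were at 38.0, 33.6 and 33.6%, and those of 3 microglia genes at 55.2, 53.0 and 52.9%. Of the 19 marker bodies, 14 were lower in Aged STD than in Young STD, with a median of -3.85 points, near the 70.4% and -2.57 points of all bodies, and 0 passed the test. In the fit with the index 13 of 19 were lower, with a median of -1.85 points, against 59.1% and -0.817 points over all bodies. The part of cell types in the differences of the kinase, phosphatase and CREB genes was not tested.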

How the data were processed

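Each RRBS library came from the dentate gyrus of an individual mouse. The submitters' processing notes name Trim Galore 0.4.0, cutadapt 1.8.1, Bismark 0.16.1, methylKit 1.5.2 and the build mm10. The methods of the study give later versions of Trim Galore and Bismark, and which were used for these values is not settled here. The authors deposited percent methylation per cytosine and mouse, filtered by them on coverage (at least 10 reads, per the methods) and on the number of mice with a value. Read numbers were not part of the values used here, so depth above that minimum is unknown, no interval from counting can be given and a coverage minimum could not be varied.

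Genes were annotated with GENCODE M21. CpGs were tested where at least 3 mice of each group had a value, which held for all 764 CpGs of the list, and where the value was not the same in all mice compared. This left out 234565, 231904 and 239887 of all CpGs in the 3 comparisons, and features without any spread were left out at the other levels too. Promoters, bodies and clusters needed at least 3 CpGs, and the level of a mouse came from an additive fit of CpG and mouse terms. The 3 comparisons were tested at 4 levels (CpGs, gene regions, clusters, body minus promoter) with limma 3.58.1 in R 4.3.3, two-sided, with a trended variance and Benjamini-Hochberg adjustment over all features tested. The threshold for a call was an adjusted p of 0.05, together with a difference over 25 points for CpGs. Errors after ± are SE for differences and SD for group levels. Counts at an unadjusted p under 0.05 are given as a description. Each mouse was a separate animal, and replicate numbers do not pair mice.

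The genes, pathway lists and marker lists were chosen with earlier results of these data known. CpGs named are the 4 with the smallest p in each comparison among those with 4 mice in each group and a difference over 25 points, and any CpG with values in every mouse compared whose groups did not overlap. The 4 clusters with the smallest p in each comparison are named as well. Clusters whose groups did not overlap and pathway genes with an unadjusted p under 0.05 were named after their values were seen. Leaving out Aged STD 3, 4 and 6 was an alternative chosen after seeing the data. Sequences are from RefSeq promoter windows (250 bases before to 50 after a start) and the genome on GRCm38.p6. Scripts were tested on simulated data and used Python 3.11.15, pandas 2.3.3, numpy 2.4.6, scipy 1.17.1 and matplotlib 3.10.9. Known changes were also added to residuals of the real Aged STD and Young STD mice. Of these, 14 of 200 were recovered for CpGs at 40 points and 73 of 200 for regions at 10 points. For clusters at 20 points it was 72 of 200, and for body minus promoter at 10 points 16 of 199. A feature that did not pass is therefore not shown to be unchanged.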

Additional observations from a re-analysis of the deposited data

Results flagged for a closer look

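In 10 of 80 groups tested, the level of 1 mouse lay far from the rest of its group by Dixon's test. Chance flags about 1 in 20 groups. At promoters these were Prkcz in Aged STD 5 at 3.88%, where the other mice ran from 1.09 to 2.12%, Ppp1cb in Aged STD 7 at 4.75% (others 1.10 to 2.53%) and Ep300 in Young STD 4 at 1.67% (others 0.750 to 0.928%). The Crebbp promoter stood at 3.14% in Aged ENR 6 (others -0.103 to 0.800%), and the Reln promoter at 2.77% in Aged ENR 2 (others 5.98 to 7.68%).

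Reln also held 3 of the cases in clusters. The intron cluster at chr5:21931778-21931821 was at 47.3% in Aged ENR 2, against 90.5 to 100% in the other mice. The cluster at the first starts, chr5:22344062-22344325, was at 8.72% in Aged STD 7 (others 0.301 to 3.36%) and at 3.04% in Aged ENR 1 (others -0.950 to 0.306%). In Camk2a the intron cluster at chr18:60977799-60977867 stood at 15.7% in Young STD 1 and at 0.463% in Aged STD 2, and the other mice of both groups were at 0%. Where all other mice are at 0%, the test flags any other value, however small, so a flag there says little.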

How the results depend on the processing

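No count of calls between groups gained one of the 10 genes under any alternative. Over all CpGs, where none was called, a fit without the variance trend called 120, 26 and 92 for Aged STD against Young STD, Aged ENR against Aged STD and Aged ENR against Young STD, and a fit of all groups together called 34 in the first and 39 in the last. Of all clusters, the 1 called between Aged STD and Young STD became 0 with the composition index or without Aged STD 3, 4 and 6, 3 with all groups together and 0 to 3 with 1 mouse left out. Between Aged ENR and Young STD it was 1 without the trend, 2 with all groups together and 0 to 3 with 1 mouse left out, and between the aged groups 0 to 1 with 1 mouse left out. Gene regions called were 1 between Aged ENR and Young STD with the library series as a covariate, and 0 to 2 in each of the other comparisons with 1 mouse left out. For body minus promoter, 1 gene was called in both comparisons with Young STD with all groups together, 1 between the aged groups with the index, and 1 between Aged ENR and Young STD with CpGs that had a value in every mouse. Over all mice the body and promoter differed in 9743 genes, and in 852 of the 1235 that could be tested with those CpGs, Wwc1 as the only 1 of the 8 genes among them.

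The median difference of the 8 bodies between Aged STD and Young STD, -9.47 points, was -4.40 with the index, -14.4 with plain means and -4.09 without Aged STD 3, 4 and 6. Between the aged groups, 4.52 points became 0.834 with the index, -1.81 without those mice and 2.31 to 6.33 with 1 mouse left out. Between Aged ENR and Young STD, -6.55 points became -3.66 with CpGs that had a value in every mouse, where only the bodies of Ppp3ca and Wwc1, 2 of the 8, could be tested. The replicate numbers do not pair mice, since deviations of mice with the same number correlated at -0.186 to 0.103. With the replicate block the medians were -9.27, 4.52 and -8.24 points, the 1 cluster called became 0, and between Aged ENR and Young STD the sign turned for the promoters of Creb1 (0.151) and Crebbp (-0.223).

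No single difference whose sign turned had passed the test, and the cause was not tested. Without Aged STD 3, 4 and 6, Aged ENR minus Aged STD gave Prkcz body -3.00, Ppp3ca promoter -0.0209, Ppp3ca body -2.73, Ppp1cb promoter -0.322, Creb1 body -0.888, Crebbp body -4.02, Ep300 promoter 0.153, Reln body -2.77, Wwc1 promoter -0.182, Wwc1 body -0.822, Creb1 body minus promoter -0.0492, Ppp3ca body minus promoter -2.71, Prkcz body minus promoter -2.33, Reln body minus promoter -2.72, Wwc1 body minus promoter -0.640 and Crebbp body minus promoter -3.80, and Aged STD minus Young STD gave Ep300 promoter -0.322, Reln body 2.70 and Reln body minus promoter 4.12 points. With the composition index as a covariate, Aged ENR minus Aged STD gave Prkcz body -0.791, Reln body -0.0536 and Prkcz body minus promoter -0.155, and Aged STD minus Young STD gave Ep300 promoter -0.405, Reln body 1.68 and Reln body minus promoter 2.72, and Aged ENR minus Young STD gave Reln body 0.908 points. With promoters of 2000 bases on each side of a start, Aged ENR minus Aged STD gave Prkcz body -0.0770, Ppp3ca promoter -0.0597, Creb1 promoter 0.679 and Creb1 body -7.27, and Aged STD minus Young STD gave Ppp3ca promoter -0.0322, Creb1 promoter -0.419 and Wwc1 promoter -0.567, and Aged ENR minus Young STD gave Ppp3ca promoter -0.0919, Creb1 promoter 0.261, Crebbp promoter -0.106 and Reln body 1.24 points. After each mouse was centred on its median deviation over all regions, Aged STD minus Young STD gave Camk2b promoter 0.0984, and Aged ENR minus Young STD gave Prkcz promoter 0.266, Creb1 promoter 0.356, Ep300 promoter 0.199 and Reln body 0.305, and Aged ENR minus Aged STD gave Ppp3ca promoter -0.157 points. With plain means of the measured CpGs, Aged ENR minus Aged STD gave Camk2b promoter 10.3 and Reln promoter 1.39, and Aged ENR minus Young STD gave Camk2b promoter 7.01 and Prkcz promoter 0.0361 points. With means of CpGs that had a value in every mouse, Aged ENR minus Young STD gave Prkcz promoter 0.437, Crebbp promoter -0.350 and Wwc1 promoter -1.15, and Aged STD minus Young STD gave Ppp1cb promoter -1.55, Crebbp promoter -0.0157 and Ep300 promoter -1.32, and Aged ENR minus Aged STD gave Wwc1 promoter -1.21 points. With the library series as a covariate, Aged ENR minus Young STD gave Creb1 promoter 0.00652 points.

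With 1 mouse left out, signs turned within these ranges. Aged STD minus Young STD gave Camk2b promoter -1.25 to 0.325, Crebbp promoter -0.0399 to 0.562, Ep300 promoter -0.106 to 0.380 and Reln body minus promoter -3.13 to 0.891. Aged ENR minus Aged STD gave Crebbp promoter -0.694 to 0.151, Ppp3ca promoter -0.226 to 0.289, Prkcz body minus promoter -0.546 to 3.92 and Prkcz body -0.975 to 3.52. Aged ENR minus Young STD gave Creb1 promoter -0.303 to 0.178, Crebbp promoter -0.298 to 0.242, Ep300 promoter -0.387 to 0.000307, Prkcz promoter -0.391 to 0.371 and Reln body -0.965 to 0.952 points. The differences at the named CpGs and at the 4 clusters with the smallest p in each comparison kept their sign under the alternatives that gave them a value. These CpGs and clusters were picked in the same mice for a large difference or a small p. A kept sign was therefore likely from the choice alone and is no support for them. A coverage minimum above that of the authors could not be applied without read counts.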
